A study of Mus musculus with 27 samples.

Results

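The genes described here are 10 nuclear receptors expressed to very different degrees in macrophages: the lipid and retinoid sensors Pparg, Ppard, Nr1h2, Nr1h3, Rxra and Rara, the heme receptors Nr1d1 and Nr1d2, the glucocorticoid receptor Nr3c1 and the vitamin D receptor Vdr. They were chosen by name, and each symbol matched 1 row of a table of 45070 genes. Of the 10, 9 passed a filter on low values, which asked for a normalised read count of 10 or more in 3 or more of the 27 libraries and left 13901 genes to test. Vdr did not pass and is given as values alone.

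Nuclear receptors are transcription factors that carry a pocket for a small fat-soluble ligand. Most of those described here bind DNA as a pair with RXR, and swap corepressors such as NCoR for coactivators once the ligand is bound, while the REV-ERB proteins made from Nr1d1 and Nr1d2 lack the activating helix and mostly repress. In macrophages the family is known for handling cholesterol and fatty acids, for restraining inflammatory genes and, in the case of PPARγ, for a part in the state that IL-4 induces.

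The study asked how clinical kinase inhibitors alter the responses of macrophages to 2 opposed stimuli, and these libraries are its time courses without inhibitor. The cells were wild-type bone marrow-derived macrophages (BMDMs), primary cells grown out of the marrow of male C57/BL6 mice aged 6 to 8 weeks, and all 9 groups, untreated cells included, were first kept for 1 h in DMSO, the solvent of the inhibitors. The groups were untreated cells, cells given lipopolysaccharide (LPS, a bacterial ligand of TLR4) at 10 ng/ml for 0.5, 1, 2 or 4 h, and cells given interleukin-4 (IL-4) at 10 ng/ml for the same times, with 3 libraries in each. Chromatin-associated RNA was sequenced, which is rich in transcripts still being made, so the values stand closer to transcription than to the stock of mRNA. Such bulk values cannot separate fewer cells expressing a gene from less RNA per cell. The untreated group has no time in the labels, and no unstimulated group matched each time. Contrasts with untreated therefore cannot tell the stimulus apart from time and handling. Nothing in the labels says whether replicates came from separate animals or cultures, so the p-values below measure the spread between these libraries, which may be technical.

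The values are normalised read counts, rounded to whole numbers by the authors, so the depth of each library is unknown and no counting interval is given. Their sum lay between 2469768 and 2790981 in untreated and IL-4 libraries and between 3571492 and 4058199 in LPS libraries. As deposited, the median tested gene stood 0.24 to 0.30 lower on the log2 scale in LPS than in untreated cells, and LPS changes below are to be read against that shift. Among genes called at LPS times against untreated, 36.3% to 40.8% were higher as deposited, 48.1% to 49.3% after median-of-ratios rescaling and 18.3% to 23.7% with all totals set equal. At IL-4 0.5 and 1 h this share was 50.02% and 53.1% as deposited and 31.5% and 39.5% with equal totals, and between IL-4 1 and 4 h it was 48.1% and 66.7%. From 1 to 2 h and from 2 to 4 h of IL-4 it was 42.9% and 43.7% as deposited and 59.5% and 55.3% with equal totals. Where LPS and IL-4 were set against each other, 33.4% to 38.4% of calls were higher in LPS as deposited, 47.1% to 48.4% after median-of-ratios rescaling and 19.1% to 22.6% with equal totals. Of the macrophage markers looked at, all 10 were detected, with sums of 11590 to 29611. Of 15 markers of other cells a marrow culture could hold, 11 never exceeded 10 and 3 (Cd3e, Ly6g and Hbb-bs) were at 0 in all 27 libraries. The sums of these 15 markers ran from 48 to 95 in untreated, 39 to 220 in LPS and 40 to 212 in IL-4 libraries. The fibroblast collagens Col1a1 and Col1a2 reached 95 and 128.

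Levels between the genes can be compared only per length. Per kb of gene span, the order in untreated cells was led by Nr3c1 at 9.71 ± 0.296 normalised read counts (SD, n = 3), followed by Ppard at 8.34 ± 0.496 and Nr1h2 at 8.20 ± 0.479, whose libraries overlapped each other. Nr1d2 at 6.80 ± 0.372, Pparg at 6.22 ± 1.22 and Rxra at 6.14 ± 1.84 came next and overlapped among themselves, with the Rxra libraries reaching as high as Ppard. Nr1d1 at 2.87 ± 0.155 and Rara at 2.23 ± 0.492 overlapped too. Nr1h3 stood apart below them at 1.33 ± 0.342, and Vdr was lowest at 0.111 ± 0.0669. Per kb of transcript the order was different, with Pparg first at 347 ± 68.2 and Ppard second at 178 ± 10.6.

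The order changed with the stimulus, and again depended on the length used. After 4 h of LPS, Nr3c1 stood at 23.6 ± 1.62 per kb of span. By span alone, Nr1h2 at 9.73 ± 1.18 and Nr1h3 at 3.83 ± 0.616 had moved up to the second and the third place. The Nr1h3 libraries overlapped with Nr1d2 at 3.35 ± 0.656. Pparg was then at 0.747 ± 0.0466 and Rxra at 0.174 ± 0.111 per kb of span. Per kb of transcript, Pparg was instead second to Nr3c1 at 41.6 ± 2.59, above Nr1h2 at 20.9 ± 2.54 and Nr1h3 at 20.8 ± 3.34. After 1 h of IL-4, Pparg led at 13.4 ± 1.69 per kb of span and Nr1h2 followed at 10.1 ± 0.460. Rara at 7.40 ± 1.01 overlapped with Nr3c1, Ppard and Nr1d2. Per kb of transcript Pparg led too, at 744 ± 94.4. Nr1h2 at 21.8 ± 0.989 was then below Ppard, Nr3c1, Rara, Rxra and Nr1d2.

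**Figure D1:**
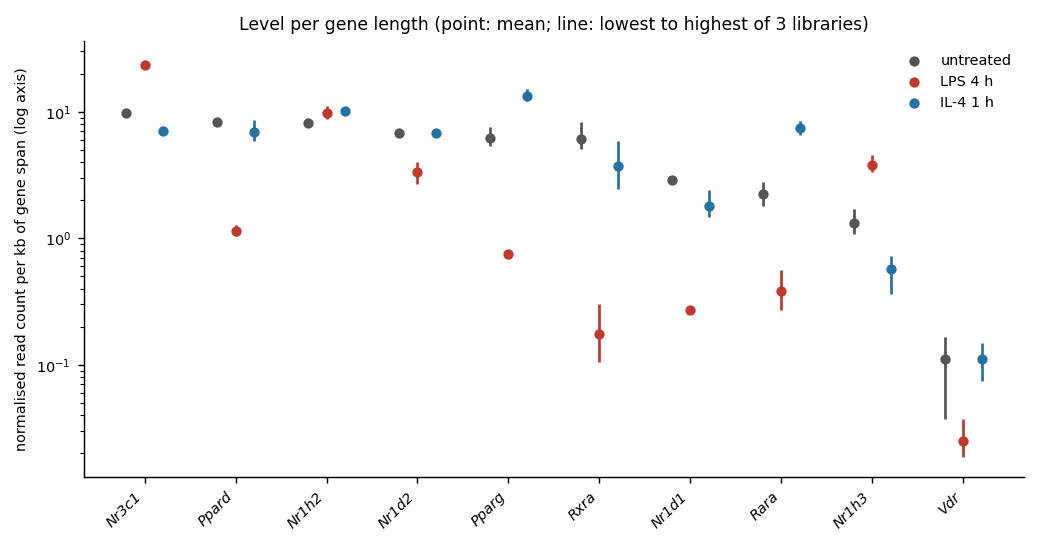
Normalised read counts per kb of gene span (log axis) for the 10 receptors in untreated cells, after 4 h of LPS and after 1 h of IL-4. Points are means and lines run from the lowest to the highest of 3 libraries. Nr3c1 is at 23.6 after LPS and Rxra at 0.174, against 9.71 and 6.14 in untreated cells.

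The RefSeq promoter table (GRCm38.p6) held sequences of 300 bases, 250 before and 50 from each start, for 9 of the 10 genes, with 16 starts in all. A search on both strands for 7 short motifs found a GC box (GGGCGG) in 9 of the 16, against 35.7% of all 32841 promoters, and the core site of many nuclear receptors (AGGTCA) in 5, against 16.3%. An E-box (CACGTG, 7.15% of all promoters) was found in 2 overlapping starts of Rara, a TATA box (TATAAA, 13.6%) at 1 start of Pparg and a STAT6 site (TTC and GAA with 4 bases between, 6.95%) in Vdr alone. No window held a D-box (TTATGTAA, 0.938%) or an NF-kB site (GGGA and TTCC with 2 bases between, 1.47%), which says only that these letters are not in these windows. Because Ppard, Nr1d1 and Nr1d2 all peaked at 0.5 h of LPS, and Pparg and Rara both rose under IL-4 (values below), their promoters are shown here in the sense of the gene, with motif letters in capitals. Ppard is at chr17:28232504-28232803 on the plus strand, with 3 GC boxes. Nr1d1 is at chr11:98775328-98775627 on the minus strand, with none of the motifs, and Nr1d2 at chr14:18239057-18239356 on the minus strand, with 5 GC boxes and an AGGTCA that starts 77 bases before the start. The first of 3 listed starts of Pparg is at chr6:115360894-115361193 on the plus strand, with an AGGTCA that starts 28 bases before that start and a reversed GC box. The first of 4 listed starts of Rara is at chr11:98937446-98937745 on the plus strand, with an E-box that begins 12 bases after the start and 4 GC boxes.
Ppard: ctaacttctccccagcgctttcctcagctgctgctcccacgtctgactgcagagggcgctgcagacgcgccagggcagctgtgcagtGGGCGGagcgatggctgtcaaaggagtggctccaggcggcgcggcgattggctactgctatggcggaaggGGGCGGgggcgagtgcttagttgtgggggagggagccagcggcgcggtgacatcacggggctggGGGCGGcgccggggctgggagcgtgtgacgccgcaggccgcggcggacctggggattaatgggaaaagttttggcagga
Nr1d1: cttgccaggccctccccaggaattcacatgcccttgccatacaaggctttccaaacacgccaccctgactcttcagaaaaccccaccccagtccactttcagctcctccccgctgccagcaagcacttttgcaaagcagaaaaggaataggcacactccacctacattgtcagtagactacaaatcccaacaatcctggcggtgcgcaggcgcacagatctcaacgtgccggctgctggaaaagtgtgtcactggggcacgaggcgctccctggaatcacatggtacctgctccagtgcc
Nr1d2: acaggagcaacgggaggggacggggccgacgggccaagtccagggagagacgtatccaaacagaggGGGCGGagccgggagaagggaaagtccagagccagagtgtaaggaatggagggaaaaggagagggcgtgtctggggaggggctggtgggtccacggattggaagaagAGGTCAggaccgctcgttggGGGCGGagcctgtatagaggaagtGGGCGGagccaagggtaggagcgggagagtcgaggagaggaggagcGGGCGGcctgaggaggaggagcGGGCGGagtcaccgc
Pparg: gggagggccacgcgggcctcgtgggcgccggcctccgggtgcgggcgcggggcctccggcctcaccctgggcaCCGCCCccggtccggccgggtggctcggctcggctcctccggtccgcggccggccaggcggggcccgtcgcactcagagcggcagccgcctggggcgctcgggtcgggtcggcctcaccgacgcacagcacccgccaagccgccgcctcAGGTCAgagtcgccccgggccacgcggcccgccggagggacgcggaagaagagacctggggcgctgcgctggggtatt
Rara: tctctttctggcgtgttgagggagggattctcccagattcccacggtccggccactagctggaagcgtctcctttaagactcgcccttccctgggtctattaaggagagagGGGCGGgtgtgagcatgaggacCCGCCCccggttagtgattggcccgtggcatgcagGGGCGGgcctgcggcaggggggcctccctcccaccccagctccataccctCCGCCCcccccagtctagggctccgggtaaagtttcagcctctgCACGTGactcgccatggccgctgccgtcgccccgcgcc

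Pparg (chromosome 6, 115360951 to 115490401, plus strand, GRCm38, no overlapping gene) encodes PPARγ, the fatty acid sensor behind lipid uptake genes. Untreated libraries held 986, 742 and 689 normalised read counts. Under LPS they held 972, 632 and 777 at 0.5 h and 397, 339 and 303 after 1 h. Values of 210, 138 and 159 followed after 2 h and of 96, 91 and 103 after 4 h. From 1 h on no LPS library reached the lowest untreated one, and the gene fell step by step. The log2 fold change against untreated was -0.03 at 0.5 h (95% interval -0.42 to 0.37, but -0.54 and called with equal totals, adjusted p = 0.0194), -1.21 ± 0.19 (SE) at 1 h and -3.03 ± 0.19 at 4 h, the last an 8.33-fold fall (adjusted p = 1.21e-09, limma). Each later step also passed: -1.18 from 0.5 to 1 h (adjusted p = 9.31e-05), -1.04 from 1 to 2 h (adjusted p = 0.000287) and -0.78 from 2 to 4 h (adjusted p = 0.00690, up to 0.0830 without replicate number 2 or 3).

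Under IL-4, Pparg was first high and then dropped. Libraries held 1984, 1698 and 1423 at 0.5 h and 1977, 1645 and 1563 at 1 h, all above every untreated library. By 2 h they were at 660, 487 and 499, below all untreated ones, and at 4 h they stood at 1305, 786 and 807, overlapping with untreated. The rise was 1.08 ± 0.20 at 0.5 h (2.11-fold, adjusted p = 0.00210) and 1.11 ± 0.20 at 1 h (2.15-fold, adjusted p = 0.00129). Without replicate number 2 throughout, neither rise passed (adjusted p up to 0.106 and 0.0637), and without number 3 the first did not. The drop from 1 to 2 h was -1.66 ± 0.20 (3.15-fold, adjusted p = 0.000212, 0.0553 without replicate number 2). The 2 h value against untreated, -0.55 ± 0.20, missed the threshold (adjusted p = 0.0622), and the rebound from 2 to 4 h, 0.79 ± 0.20, passed narrowly (adjusted p = 0.0403) and was lost under 10 of the 18 omissions of libraries, the IL-4 4 h replicate 1 among them.

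Ppard (chromosome 17, 28232754 to 28301469, plus strand) encodes PPARδ, the more broadly expressed PPAR, which turns on fatty acid oxidation genes. It held 611, 563 and 545 in untreated cells. At 0.5 h of LPS the libraries rose to 2484, 1918 and 1707, at 1 h they held 569, 406 and 480, and at 2 h they had dropped to 71, 42 and 57, with 87, 71 and 78 at 4 h. A peak 3.55-fold above untreated (1.81 ± 0.19, adjusted p = 1.08e-06) was thus followed at 2 h by a level 10.1-fold below it (-3.35 ± 0.19, adjusted p = 3.80e-10). Relative to the median gene these differences were 2.06 and -3.06. The 1 h value missed the threshold as deposited and was called lower with equal totals (-0.83, adjusted p = 0.000681). The step from 1 to 2 h alone was -3.09 ± 0.19 (8.56-fold, adjusted p = 3.83e-09). IL-4 libraries lay between 402 and 624 at all 4 times, and no IL-4 contrast with untreated passed (-0.32 at 2 h, 95% interval -0.59 to -0.05, adjusted p = 0.0767). The gene holds 1810013A23Rik on the same strand, and reads cannot be assigned between them with certainty: that gene stood at 13 to 17 in untreated cells, 32 to 56 at LPS 0.5 h and 0 to 2 at LPS 2 h, far below Ppard itself.

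The liver X receptors sense oxidised cholesterol and turn on its export. Nr1h2 (LXRβ, chromosome 7, 44549616 to 44553965, minus strand) was the steadiest of the receptors tested, at 34 to 67 in all 27 libraries. It held 34, 35 and 38 in untreated cells, 54, 67 and 45 at LPS 1 h and 51, 50 and 54 at LPS 2 h. These rises, 0.60 ± 0.18 (adjusted p = 0.00901) and 0.52 ± 0.18 (adjusted p = 0.0192), were lost without single libraries (LPS 1 h replicate 2 for the first, adjusted p = 0.147, untreated replicate 1 or LPS 2 h replicate 3 for the second). With all totals equal, the 2 h value turned to -0.12 and no contrast of LPS with untreated passed for this gene. After median-of-ratios rescaling it was instead called higher at all 4 LPS times, with 0.59 at 0.5 h (adjusted p = 0.0107) and 0.46 at 4 h (adjusted p = 0.0315). IL-4 libraries lay between 35 and 50, and no contrast passed (0.30 at 1 h, 95% interval -0.01 to 0.60).

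Nr1h3 (LXRα, chromosome 2, 91184061 to 91195116, minus strand) is the LXR that macrophages induce when loaded with sterols. It was low, at 12, 19 and 13 in untreated cells, and alternated under LPS: 30, 17 and 16 at 0.5 h and 43, 32 and 32 after 1 h. After 2 h the libraries stood at 16, 18 and 7, and after 4 h at 50, 37 and 40. Libraries at 1 and 4 h were all above untreated and those at 2 h were not. The rise was 1.24 ± 0.34 at 1 h (2.43-fold, adjusted p = 0.00467, lost with equal totals) and 1.48 ± 0.34 at 4 h (2.89-fold, adjusted p = 0.00124). The fall between 1 and 2 h, -1.40 ± 0.34 (adjusted p = 0.00299), and the return between 2 and 4 h, 1.65 ± 0.34 (adjusted p = 0.00225), both passed, and both missed the threshold without replicate number 3 (adjusted p = 0.0632 and 0.0751). Under IL-4 no library exceeded 11: they held 11, 6 and 7 at 0.5 h and 7, 8 and 4 after 1 h. Values of 8, 10 and 5 followed after 2 h and of 2, 11 and 5 after 4 h. All 12 were below the lowest untreated library, yet the F test over the course did not pass (adjusted p = 0.144), and the contrast at 4 h (-1.36 ± 0.44, adjusted p = 0.0368) was lost in 7 of 18 omissions, each untreated library included.

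Rxra (RXRα, chromosome 2, 27677201 to 27763319, plus strand, no overlapping gene) encodes the common partner of PPARs, LXRs, RARs and the vitamin D receptor. Its fitted fall under LPS was larger than that of the other 8 receptors tested, of which Nr1d1 gives only a bound (below). Untreated libraries held 712, 441 and 434, LPS 0.5 h libraries 308, 120 and 179, 1 h libraries 66, 24 and 21, 2 h libraries 29, 9 and 17 and 4 h libraries 26, 10 and 9. From 1 h on, every LPS library was far below the lowest untreated one. The log2 fold change was -3.95 ± 0.50 at 1 h (14.3-fold, adjusted p = 6.07e-06) and -5.16 ± 0.50 at 4 h (35.3-fold, adjusted p = 2.49e-07). The earlier value, -1.45 ± 0.50 at 0.5 h (adjusted p = 0.0236), was lost after median-of-ratios rescaling and without any 1 of 3 libraries: untreated replicate 1, LPS 0.5 h replicate 2 or LPS 0.5 h replicate 3. IL-4 libraries held 495, 203 and 216 at 0.5 h and 509, 235 and 210 after 1 h. After 2 h the libraries stood at 534, 323 and 276, and after 4 h at 530, 362 and 386. Replicate 1 was the highest in each, and overlapped with untreated. No IL-4 contrast passed in the main fit, which holds no term for the replicate number (-0.88 at 0.5 h, 95% interval -1.72 to -0.04, adjusted p = 0.159). With such a term in the fit, those with untreated at 0.5, 1 and 2 h passed (adjusted p = 0.000217, 0.000313 and 0.00859). With replicate number 1 left out of every group, the contrasts at 0.5, 1 and 2 h passed, at -1.06, -0.97 and -0.55 (adjusted p = 2.89e-05, 3.34e-05 and 0.00132). The first and the second of these also passed when the IL-4 replicate 1 of that time alone was left out.

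Rxra also showed the widest offset between replicates. Its replicate 1 stood above the mean of replicates 2 and 3 in 9 of 9 groups, by a median of 1.16 on the log2 scale, against 0.42 for Pparg and 0.07 for Nr3c1. The collagens Col1a1 and Col1a2 were likewise highest in replicate 1 of 9 of 9 groups, at 35 to 95 and 53 to 128 there against 8 to 28 and 16 to 42 in replicates 2 and 3, and their part in the Rxra offset was not tested.

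Rara (RARα, chromosome 11, 98937696 to 98974942, plus strand) encodes a receptor for all-trans retinoic acid. It held 103, 67 and 79 in untreated cells and rose at every IL-4 time: to 273, 261 and 208 at 0.5 h and 317, 244 and 266 after 1 h. Values of 345, 246 and 302 followed after 2 h and of 187, 183 and 189 after 4 h. Every IL-4 library was above every untreated one. The rise was 1.58 ± 0.16 at 0.5 h (adjusted p = 1.44e-05), peaked at 1.84 ± 0.16 at 2 h (3.59-fold, adjusted p = 1.79e-06) and was 1.18 ± 0.16 at 4 h (adjusted p = 0.000118). LPS gave a smaller and brief rise, with 176, 148 and 105 at 0.5 h and 133, 105 and 113 at 1 h, then 30, 26 and 35 at 2 h and 21, 10 and 12 at 4 h. The early value, 0.77 ± 0.26 (adjusted p = 0.0222), was lost with equal totals and without any 1 of 4 single libraries (untreated replicates 2 and 3, LPS 0.5 h replicates 1 and 2), while the fall to 4 h was -2.50 ± 0.26 (5.79-fold, adjusted p = 6.29e-07). Gm46294, on the opposite strand across the start of Rara, stood at 6 to 10 in untreated, 19 to 38 in IL-4 and 1 to 3 in LPS 4 h libraries. Since the use of strand in counting is not stated, the reads of both genes cannot be told apart with certainty. Gm22061, on the same strand, never exceeded 1.

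**Figure D2:**
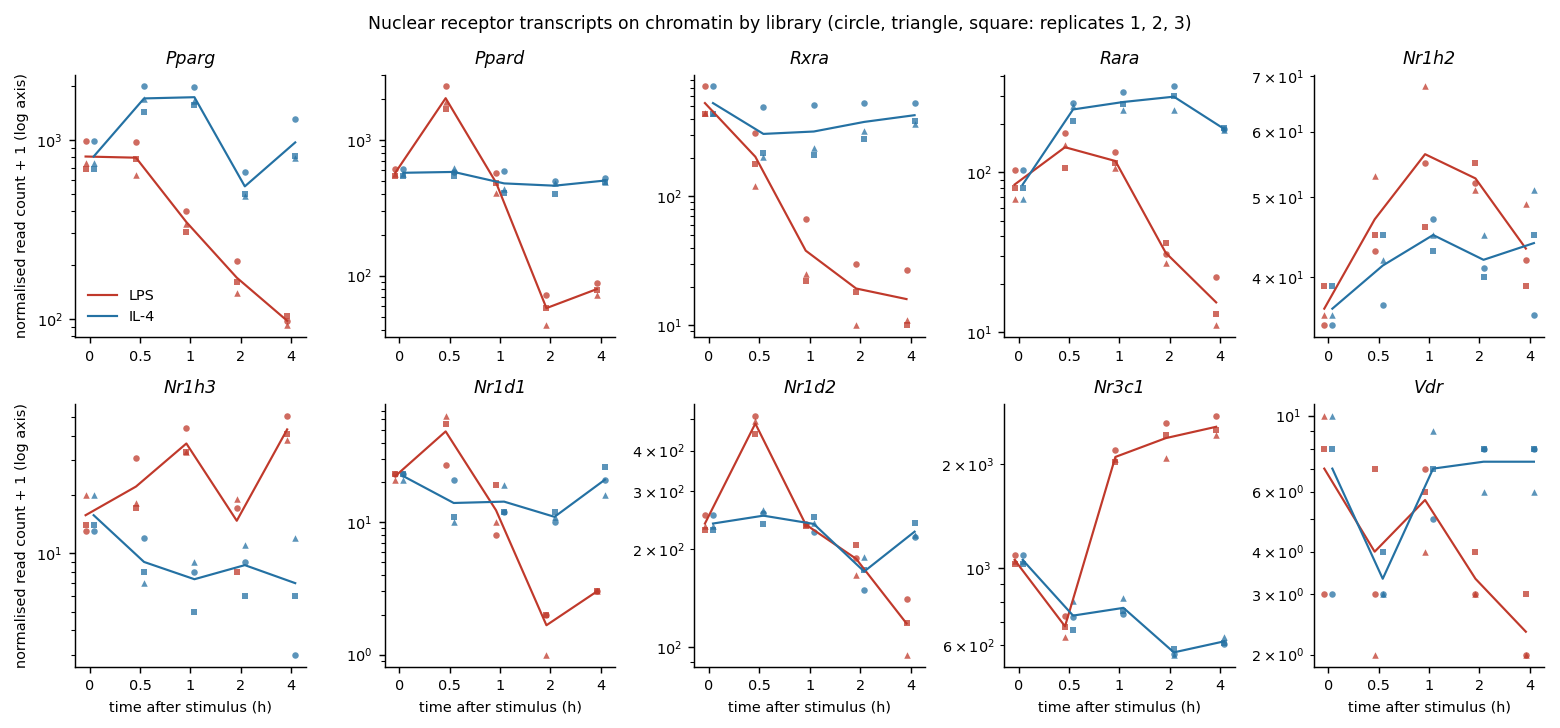
Normalised read count + 1 (log axis, separate for each gene) against time after LPS (red) or IL-4 (blue) for the 10 receptors, with the shared untreated libraries drawn at 0 h. Markers are single libraries and lines join the means. Ppard, Nr1d1 and Nr1d2 peak at LPS 0.5 h, Pparg is high at IL-4 0.5 and 1 h, and the courses of Nr3c1 part after 0.5 h.

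The REV-ERB repressors belong to the circadian clock, where they hold down Arntl, and bind heme. Nr1d1 (REV-ERBα, chromosome 11, 98767932 to 98775377, minus strand) held 22, 20 and 22 in untreated cells, and 26, 63 and 54 at 0.5 h of LPS. It then fell to 7, 9 and 18 after 1 h. After 2 h the libraries stood at 1, 0 and 1, and after 4 h at 2, 2 and 2. Both later groups were at or under 3, so the fall was at least 7.11-fold, against a floor of 3 per library. Its early rise (1.03 ± 0.40, adjusted p = 0.0411) and the 1 h value (-0.96 ± 0.40, adjusted p = 0.0491) were near the threshold, and were lost without 1 library in several ways: any untreated library for both, and LPS 0.5 h replicates 2 or 3 for the rise (7 and 13 of 18 omissions). The rise was also lost with equal totals, whereas the drop from 0.5 to 1 h itself was -1.99 ± 0.40 (adjusted p = 0.000768) and passed in every omission. Under IL-4 the 2 h libraries, at 9, 10 and 11, were below untreated (-1.02 ± 0.29, adjusted p = 0.0174, 0.140 at most across omissions), and the 4 h ones were back at 20, 15 and 25. Thra, the thyroid hormone receptor α gene, overlaps Nr1d1 tail to tail on the other strand and stood at 36 to 55 in untreated, 19 to 25 at LPS 0.5 h and 0 to 4 at LPS 4 h. Thra was thus down at 0.5 h, when Nr1d1 was up, and low together with it at 2 h (2 to 5) and 4 h. As for Rara, unstated use of strand in counting means that the reads of both genes cannot be told apart with certainty.

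Nr1d2 (REV-ERBβ, chromosome 14, 18204056 to 18239106, minus strand, no overlapping gene) showed the same early peak with less spread (SE of 0.14 against 0.40 for Nr1d1). It held 253, 234 and 228 in untreated cells, 511, 491 and 448 at LPS 0.5 h and 237, 238 and 235 after 1 h. Values of 187, 166 and 204 followed after 2 h and of 140, 94 and 118 after 4 h. The rise was 1.02 ± 0.14 (2.03-fold, adjusted p = 1.83e-05) and the 4 h value -1.03 ± 0.14 (2.03-fold lower, adjusted p = 8.44e-06). The 2 h value of -0.36 ± 0.14 (adjusted p = 0.0305) was only -0.08 relative to the median gene, and was lost after median-of-ratios rescaling and without untreated replicate 1 or 2 or LPS 2 h replicate 1 or 2. Under IL-4 a dip appeared at 2 h, with 149, 188 and 172 (-0.49 ± 0.09, adjusted p = 0.00103), and the libraries at the other 3 times lay between 216 and 262. The return from 2 to 4 h was 0.41 ± 0.09 (adjusted p = 0.0189, lost in 5 of 18 omissions).

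Nr3c1 (chromosome 18, 39410545 to 39519421, minus strand, no overlapping gene) encodes the glucocorticoid receptor, which binds cortisol-like steroids and is the target of anti-inflammatory drugs such as dexamethasone. It held 1093, 1047 and 1031 in untreated cells. At 0.5 h, LPS libraries were lower, at 726, 633 and 677, and by 1 h they had turned to 2205, 2070 and 2025, with 2629, 2082 and 2431 at 2 h and 2765, 2426 and 2512 at 4 h. The fold changes were -0.64 ± 0.10 (adjusted p = 0.000102), 0.99 ± 0.10 (adjusted p = 8.29e-07), 1.16 ± 0.10 (adjusted p = 9.31e-08) and 1.28 ± 0.10 (2.43-fold, adjusted p = 3.16e-08), and the step from 0.5 to 1 h was 1.63 ± 0.10 (3.09-fold). Under IL-4 the gene was below untreated at all 4 times: libraries held 721, 805 and 661, then 735, 818 and 750, then 566, 562 and 583, and at 4 h 603, 631 and 608. The largest fall was -0.89 ± 0.07 at 2 h (1.85-fold, adjusted p = 8.54e-07). At 0.5 h both stimuli thus gave values below untreated, and the 2 did not differ detectably there (-0.10, 95% interval -0.29 to 0.09), though with equal totals LPS was called lower (-0.48, adjusted p = 4.42e-05).

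Vdr (chromosome 15, 97854427 to 97908296, minus strand), the receptor for the active form of vitamin D, was at 1 to 9 in all 27 libraries. It held 2, 9 and 7 in untreated cells, 1, 1 and 2 at LPS 4 h and 7, 5 and 7 at IL-4 4 h. No difference is claimed at this level, where the overlapping Gm33690 (opposite strand, 0 to 5) contributes values of like size.

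Over the whole LPS course, all 9 tested receptors passed the F test, where 87.6% of all tested genes did, so that this count says little about the receptors. By the change of largest size, Nr1h2, Nr1h3 and Nr3c1 rose and the other 6 fell, where 32.9% and 54.7% of all genes did. At 0.5 h, 4 of 9 were called higher (Ppard, Rara, Nr1d1 and Nr1d2) and 2 lower (Rxra and Nr3c1), against 19.6% and 34.4% of all genes. The median of the receptors was 0.46 and that of all genes -0.24. At 1 h, 3 were higher and 3 lower, against 24.8% and 39.0%. At 2 h, 2 were higher and 6 lower, against 26.9% and 39.0%, and at 4 h 2 were higher and 6 lower, against 25.9% and 37.6%, with medians of -2.50 for the receptors and -0.26 for all genes. With equal totals, 2 receptors were called up and 3 down after 0.5 h. After 1 h these calls were 1 and 5, after 2 h they were 1 and 7, and after 4 h again 2 and 6. Over the course, 1 then rose (Nr1h3) and 7 fell, Nr3c1 among them by its 0.5 h value. All 13901 tested genes leaned to falls under this scaling, and the receptor counts are to be read against that. Genes called up numbered 1621, 2158, 2369 and 2426 after 0.5, 1, 2 and 4 h. Genes called down numbered 7255, 7749, 7976 and 7808. Over the course 2919 genes rose and 9678 fell.

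The steps between neighbouring LPS times showed when each receptor moved. Between 0.5 and 1 h, 6 of 9 were called (49.7% of all genes), Nr3c1 upwards and Pparg, Ppard, Rxra, Nr1d1 and Nr1d2 downwards. Between 1 and 2 h, 6 were called, all downwards (43.3% of genes in either direction), and the Nr1d2 step (-0.35 ± 0.14, adjusted p = 0.0497) was lost in 14 of 18 omissions. Between 2 and 4 h, 4 were called (22.9%), with Nr1h3 up and Pparg, Rara and Nr1d2 down. From 1 to 4 h directly, Nr3c1 alone was higher (0.29 ± 0.10, adjusted p = 0.0298, lost without LPS 1 h replicate 2 or 3 or LPS 4 h replicate 1 or 3 and after median-of-ratios rescaling) and 5 were lower, against 26.4% and 24.7% of genes.

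Over the IL-4 course, 5 of 9 passed the F test (Pparg and Rara up, Nr1d1, Nr1d2 and Nr3c1 down), against 40.3% of all genes. By direction, 19.4% of all genes rose and 20.9% fell. At 0.5 h, 2 were higher and 1 lower, against 8.15% and 8.14%, and at 1 h again 2 and 1, against 11.1% and 9.83%. At 2 h, Rara was higher and 3 were lower, against 14.3% and 13.2%. At 4 h, Rara was higher and 2 were lower, against 13.4% and 12.5%. Between 0.5 and 1 h, 0 receptors were called by limma, where 7.82% of all genes were called in either direction. Of the receptors, 1 (Ppard, -0.30 with a 95% interval of -0.57 to -0.03) passed an unadjusted 0.05, for which the share of all genes is not given. Between 1 and 2 h, Pparg, Nr1d2 and Nr3c1 fell (9.40% of genes called in either direction), and between 2 and 4 h Pparg and Nr1d2 rose and Rara fell (5.48%). From 1 to 4 h none was higher and 3 were lower (Pparg, Rara and Nr3c1), against 8.60% and 9.30%.

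**Figure D3:**
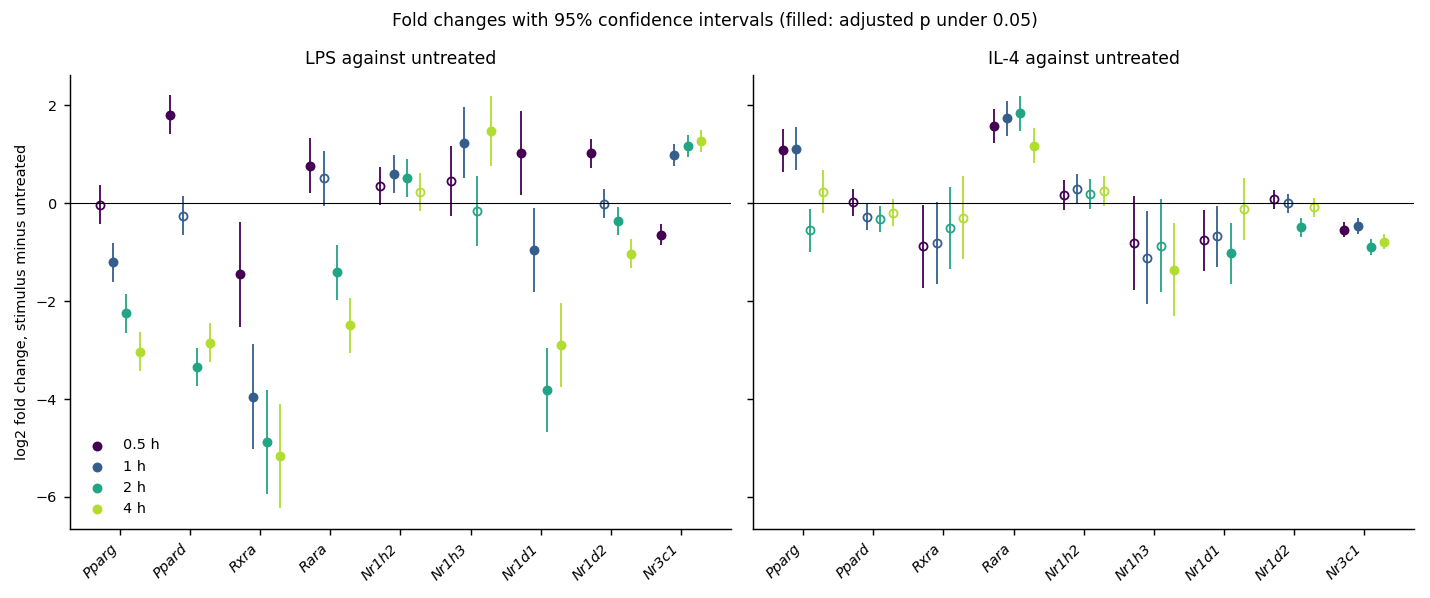
Log2 fold changes against untreated (points) with 95% intervals (bars) for the 9 tested receptors over 4 times of LPS (left) or IL-4 (right). Filled points passed an adjusted p of 0.05. LPS values run from -5.16 (Rxra, 4 h) to 1.81 (Ppard, 0.5 h), and IL-4 values from -1.36 (Nr1h3, 4 h) to 1.84 (Rara, 2 h).

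Set directly against each other at the same time, the stimuli differed in 6 of 9 receptors at 0.5 h. LPS was higher for Ppard, Nr1h3, Nr1d1 and Nr1d2 and lower for Pparg and Rara, against 18.0% of all genes higher and 35.8% lower. The difference for Ppard was 1.79 ± 0.17 (3.50-fold, adjusted p = 4.90e-09) and that for Nr1d1 was 1.79 ± 0.37 (adjusted p = 0.000245). At 1 h, 2 were higher and 3 lower, against 24.0% and 40.5%, and at 2 h 1 was higher and 5 were lower, against 26.4% and 42.3%. At 4 h, 2 were higher (Nr1h3 and Nr3c1) and 6 lower (Pparg, Ppard, Rxra, Rara, Nr1d1 and Nr1d2), against 26.1% and 41.9%. Only Nr1h2 was not called then (-0.01, 95% interval -0.35 to 0.32), though with equal totals it was called lower.

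Rara stood at 297.7 under IL-4 and 30.3 under LPS at 2 h, a difference of -3.25 ± 0.22 (9.81-fold, adjusted p = 4.49e-12). Pparg stood at 1728 against 346 at 1 h (-2.32 ± 0.20, adjusted p = 5.46e-10) and 966 against 96.7 at 4 h (-3.27 ± 0.20, adjusted p = 6.27e-13). Nr3c1 stood the other way, at 614 under IL-4 and 2568 under LPS at 4 h (2.06 ± 0.09, 4.18-fold, adjusted p = 1.33e-15), and so did Nr1h3, at 6 against 42.3 (2.84 ± 0.41, 7.06-fold, adjusted p = 1.70e-06). Ppard and Nr1d2 differed by little at 1 h (0.03 and -0.00 as fitted, 95% intervals -0.32 to 0.38 and -0.25 to 0.24), between the early peak and the later fall, and with equal totals both were called lower in LPS then.

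**Figure D4:**
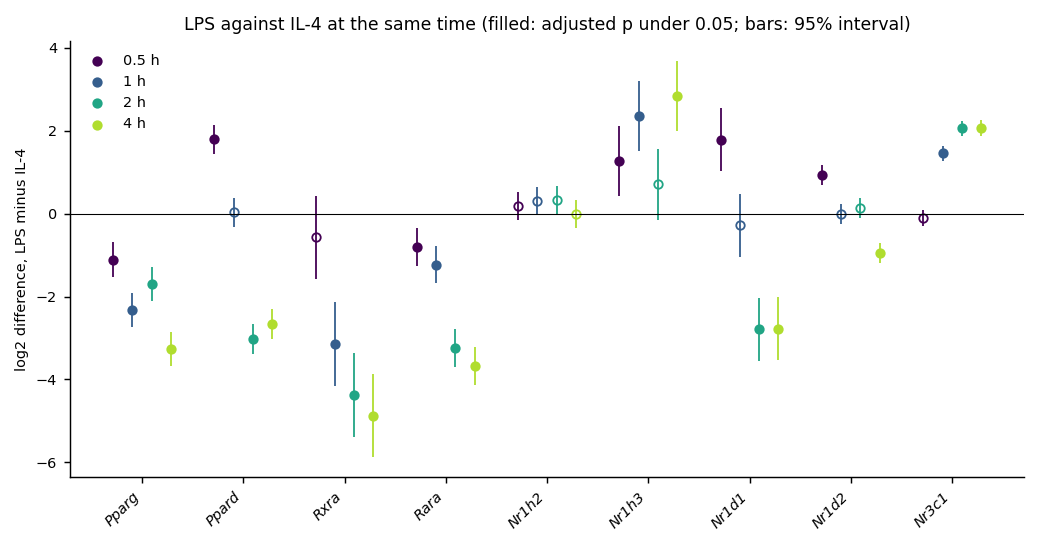
Log2 difference LPS minus IL-4 at the same time (points) with 95% intervals (bars) for the 9 tested receptors. Filled points passed an adjusted p of 0.05. Nr3c1 runs from -0.10 at 0.5 h to 2.06 at 4 h, and Rxra from -0.57 to -4.87.

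The rest of the family was mostly silent: of 39 other nuclear receptors in the table, 16 passed the filter. Under LPS 15 of these 16 passed the F test, near the 87.6% of all genes. Of the 16, 4 rose and 11 fell, against 32.9% and 54.7% of all genes. The median of the 16 was -1.25 at 4 h against -0.26 for all genes. The NR4A receptors, which act without a known ligand as early response factors, were among those up. Nr4a3 went from 0.333 ± 0.577 to 118 ± 20.5 at 1 h (at least 39.4-fold higher, adjusted p = 1.62e-10), and Nr4a1 from 16.7 ± 10.0 to 482 ± 70.9 at 0.5 h (4.91 ± 0.45 on the log2 scale). Esrra, a regulator of mitochondrial genes that overlaps Trmt112, rose under LPS (1.55 ± 0.25 at 4 h) and under IL-4 (1.04 ± 0.25 at 4 h, adjusted p = 0.00699, lost without replicate number 2 or 3). Under IL-4, 5 of the 16 passed, against 40.3% of all genes, with 1 up and 4 down, against 19.4% and 20.9%. Nr6a1 fell by 0.51 at 1 h (adjusted p = 0.00581, up to 0.134 without replicate number 2 or 3). Rxrb, which encodes another RXR, went from 42, 56 and 41 in untreated cells to a mean of 13 at LPS 4 h (-1.77, adjusted p = 4.04e-05). Rxrg did not pass the filter.

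Of 15 known LXR targets, 13 were tested. Under LPS 1 of them rose and 10 fell over the course by the change of largest size, where 32.9% and 54.7% of all genes did, with a median of -0.83 at 4 h against -0.26 for all genes. At 0.5 h, 1 was higher and 5 were lower, and at 1 h 4 and 5. All genes then stood at 19.6% and 34.4%, and at 24.8% and 39.0%. At 2 h, 0 were higher and 8 lower, against 26.9% and 39.0% of all genes. At 4 h, 1 was higher and 7 were lower, against 25.9% and 37.6%. Acsl3, a fatty acid activating enzyme, fell by 3.59 at 4 h (112 to 8.33), Abcg1, a cholesterol exporter, fell by 2.33 at 0.5 h (181 to 40.7, adjusted p = 0.00336, lost without replicate number 2), and Lpl, lipoprotein lipase, fell by 2.03 at 0.5 h. Lpl was then higher than untreated at 1 h (0.65, adjusted p = 0.0283) and at 4 h (1.26, adjusted p = 0.000313), although it counts among the 10 that fell. Under IL-4, 3 rose and 5 fell, where 19.4% and 20.9% of all genes did. Abca1, the other main cholesterol exporter, fell by 2.00 at 2 h (2228 to 575, adjusted p = 0.000331), while Abcg1 rose to 467 at 4 h (1.35). Under LPS the exporters parted too, since Abca1 was higher at 0.5 h (5163, adjusted p = 5.41e-05) and lower at 4 h (-1.45). Acsl3 and Smpdl3a, an LXR-induced phosphodiesterase, fell by 1.86 and 1.48 under IL-4.

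PPAR targets moved in both directions. Of 16 listed, 14 were tested and all passed under LPS, where 87.6% of all genes did. By the change of largest size 4 rose and 10 fell, against 32.9% and 54.7% of all genes, with a median of -0.74 at 4 h against -0.26. The 4 that rose included Olr1, an oxidised LDL receptor (1.00 to 521 at 1 h, at least 173.8-fold), Fabp4, a fatty acid carrier (2.33 to 76.3 at 0.5 h), and Tgm2, a transglutaminase (86.0 to 1556). By their change of largest size, the 10 that fell hold most of the fatty acid oxidation genes listed (Cpt1a, Acadm, Acadvl, Acaa2, Hadha and Slc25a20). Acadl, also a fatty acid oxidation gene of the list, went the other way and is among the 4 that rose (0.87 at 4 h, adjusted p = 0.000149). Under IL-4, 9 of the 14 passed (40.3% of all genes), of which 4 rose and 5 fell, against 19.4% and 20.9%. Cd36, a fatty acid uptake receptor, rose by 3.29 at 0.5 h (321 ± 42.4 to 3350 ± 1408, adjusted p = 1.40e-05) and was then lower than untreated at 2 h (-1.09, adjusted p = 0.0297) and at 4 h (-1.21, adjusted p = 0.0183). Tgm2 rose by 2.16 at 0.5 h, while Plin2, which coats lipid droplets, fell by 1.25 at 2 h.

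Of 16 glucocorticoid receptor targets, 15 were tested and all passed under LPS, again against 87.6% of all genes. Of these, 8 rose and 7 fell, against 32.9% and 54.7% of all genes. Their median was 0.95 at 0.5 h and -1.20 at 4 h, where those of all genes were -0.24 and -0.26. Errfi1, an EGF receptor inhibitor, rose from 20.7 ± 0.577 to 1995 ± 161.9 at 0.5 h, and Dusp1, a phosphatase of MAP kinases, from 25.0 ± 12.8 to 1848 ± 375. Zbtb16, a transcription factor induced by steroids, fell to 1 in each library at 4 h (at least 35.4-fold lower). Dusp1 and Errfi1 are also known as early response genes to many signals. Under IL-4, 11 of 15 passed (40.3% of all genes), 4 up and 7 down, against 19.4% and 20.9%. Among them were Zbtb16 (-2.37 at 4 h), Sgk1, a kinase (-2.05 at 2 h), and Errfi1 upwards (1.88 at 0.5 h). Of 15 retinoid and vitamin D targets and ligand enzymes, just 5 were tested. All 5 fell under LPS, where 54.7% of all genes did, led by Dhrs3, which reduces retinal (1035 to 70.0 at 2 h, -3.88), Cyp27a1, a sterol 27-hydroxylase (-3.06 at 4 h), and Rdh10, which makes retinal (-1.99 at 0.5 h). Dhrs3, which retinoic acid is known to induce, rose under IL-4 to 1998 (0.94 at 0.5 h, adjusted p = 5.00e-05), while Cyp27a1 (-1.40) and Rdh10 (-0.99, adjusted p = 0.0565 without replicate number 2) fell.

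Of 17 other clock genes, 15 were tested. Under LPS 3 rose and 10 fell, against 32.9% and 54.7% of all genes, with a median of -1.09 at 4 h against -0.26. Per1, a clock repressor that is also counted among the glucocorticoid targets, was higher than untreated at 0.5 h (1.61) and fell by 3.67 at 2 h (104 to 7.33), and Tef, a clock output factor, also by 3.67. Nfil3, which REV-ERB is known to repress, rose under both stimuli, from 21.3 to 241 at LPS 1 h (adjusted p = 6.12e-08) and to 236 at IL-4 0.5 h (adjusted p = 5.15e-07). Arntl, the core clock activator and a REV-ERB target, was lower at all 4 LPS times, at -2.11 at 1 h and -1.09 at 4 h, times when Nr1d1 and Nr1d2 ran from an early peak to a low level. Under IL-4, 8 of the 15 clock genes passed (40.3% of all genes), 4 up and 4 down, against 19.4% and 20.9%. Those down included Arntl (-1.34 at 1 h) and Csnk1e, a kinase of PER proteins (-1.24 at 0.5 h, lost without replicate number 2 or 3).

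Among 20 coregulators 19 were tested, of which 7 rose and 10 fell under LPS, against 32.9% and 54.7% of all genes, and 6 rose and 8 fell under IL-4, against 19.4% and 20.9%. Ppargc1b, the coactivator PGC-1β, known for its part in the IL-4 state, rose from 65.7 ± 15.8 to 1262 ± 114 at IL-4 4 h (4.27, adjusted p = 1.98e-07). It also rose under LPS, to 1435 ± 235 at 2 h (4.44, adjusted p = 7.18e-09). Gm46627, Gm52354 and Mir378a overlap it. The corepressor exchange factor Tbl1xr1 fell under LPS (1915 to 279 at 2 h, -2.79), as did Ncoa4, a coactivator and ferritin receptor (-2.56). Under IL-4 Tbl1x fell by 1.32 at 1 h and Ncoa4 by 1.27 at 0.5 h. The targets and coregulators were listed from general knowledge, and many are regulated by factors other than these receptors.

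**Figure D5:**
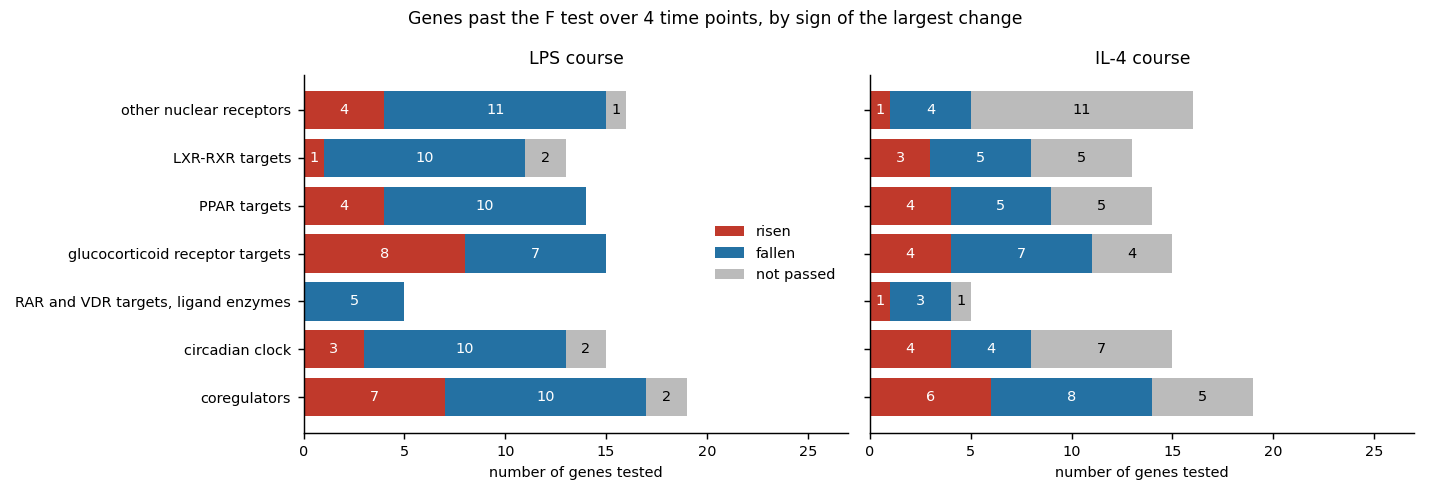
Number of tested genes of 7 lists that passed the F test over 4 time points and rose (red) or fell (blue) by their change of largest size, or did not pass (grey), under LPS (left) and IL-4 (right). Passing genes make up 15 of 16 other nuclear receptors under LPS and 5 of 16 under IL-4.

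Over the 27 libraries, which share their untreated cells and scaling, Ppard and Nr1d1 ran most alike among the receptors (Pearson r = 0.934 of log2 values), and Rxra and Nr3c1 most opposite (r = -0.870). Across all genes with a mean of at least 50, the pattern most like Pparg was that of Enpp1, an ectoenzyme that makes pyrophosphate (r = 0.963), followed by Rasgrp3 (0.958). Ppard ran closest to Sh2d4b (0.978), Rxra to Myo18a (0.972), Rara to Ldlrad3 (0.964) and Nr1d1 to Pnpla8, a phospholipase (0.962). Nr3c1 ran closest to the non-coding Gm43221 and to Rnf145, a sterol-regulated ubiquitin ligase (both 0.970). Nr1d2 was nearest to Ifngr1, the interferon-γ receptor chain (0.899), Nr1h3 to Gm34545 (0.885) and to Irak3, an inhibitor of TLR signalling (0.880), and the steady Nr1h2 to the translation factor Eif3c, with the weakest likeness (0.786).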

How the data were processed

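Chromatin-associated RNA of BMDMs was measured in 27 libraries. Per the methods, the authors aligned single-end reads to mm10 with TopHat2 2.1.1, removed multi-mapping and blacklisted reads (bedtools 2.29.2), counted per gene with R packages on the GRCm38.p6 annotation and scaled libraries on invariant genes. What the authors deposited is a normalised read count per gene, rounded to a whole number and handled here as a score rather than a raw count. No count model was used. Strand use in counting, and whether intronic reads were counted, are not given in the sources used here.

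All 27 sample columns were matched by label. Values were tested on log2(value + 1), a scale that understates the change of low genes, by limma 3.58.1 in R 4.3.3 with a mean-variance trend, and p-values were adjusted over the 13901 genes by the Benjamini-Hochberg method (threshold 0.05). A course fit held 15 libraries, the 3 untreated ones among them, and 1 fit of all 27 compared LPS with IL-4. The study's impulse model was not run. Contrasts of neighbouring times were added after the values were seen. The scripts were tested on simulated data.

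The receptors, gene lists and motifs were chosen with earlier results of these data known. Genes named from a list are the 3 per stimulus with the largest change among those past the F test with a mean of at least 50 in the higher group, and the patterns named are those with the highest Pearson r. Rxrb, Rxrg, Arntl and Abca1 under LPS, Abcg1 under IL-4 and the fatty acid oxidation genes fall outside that rule and were chosen after their values were seen. Groups at or under 3 in every library give a bound computed against 3. Positions come from the deposited table and promoters from RefSeq (GRCm38.p6). Alternatives were a pseudocount of 8, no filter, a mean of at least 50, 2 other scalings, a replicate block, replicates 2 and 3 averaged, no trend, 1 fit of all 27 and left-out libraries.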

Additional observations from a re-analysis of the deposited data

Results flagged for a closer look

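The results below were picked out because both changes compared passed the test in opposite directions and their difference passed as well. They are given as values. Pparg at 1 h differed by -2.32 on the log2 scale between LPS, where all 3 libraries were below untreated, and IL-4, where all 3 were above. Rara differed by -3.25 at 2 h and by -3.68 at 4 h, lower than untreated in all LPS libraries and higher in all IL-4 libraries. Nr1h3 at 4 h differed by 2.84, with all LPS libraries above and all IL-4 libraries below untreated. Nr3c1 differed by 1.45 at 1 h, 2.05 at 2 h and 2.06 at 4 h, in the same sense as Nr1h3. Within the LPS course, Nr1d1 changed by -1.99 between 0.5 h, when all libraries were above untreated, and 1 h, when all were below. Nr3c1 changed by 1.63 over the same step, from all below to all above untreated. In limma's direct contrasts these 9 differences had adjusted p-values of 0.000768 or lower. The IL-4 change of Nr1h3, and both changes of Nr1d1 against untreated, were lost when some single libraries were left out.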

How the results depend on the processing

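Of 180 receptor contrasts, a pseudocount of 8 kept 178 on their side of the threshold, no filter 171, no mean-variance trend 174, median-of-ratios rescaling 165 and equal totals 158. With equal totals, 3 values that were called there or as deposited changed sign: Ppard LPS against IL-4 at 1 h became -0.45 (adjusted p = 0.0183), Nr1h2 LPS 2 h against untreated -0.12 and Nr1d2 LPS against IL-4 at 2 h -0.50 (adjusted p = 0.000589). Values that were not called and lay near 0 also changed sign when libraries were left out, such as Pparg LPS 0.5 h against untreated (-0.18 to 0.13). The depth behind the rounded values is unknown, which limits Vdr, Nr1h3 and Nr1d1 most.

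Receptors called at LPS 0.5 h numbered 3 with no filter and 3 with replicates 2 and 3 averaged, in place of 6. At LPS 1 h there were 3 with a mean of at least 50, which tests fewer genes. Between IL-4 1 and 4 h there was 1 with equal totals and 0 with averaging, in place of 3. The LPS course called 7 other nuclear receptors, 9 PPAR targets, 9 glucocorticoid receptor targets, 3 retinoid and vitamin D genes and 8 clock genes with a mean of at least 50, and 7 LXR targets with averaging. The IL-4 course called 3, 5, 7 and 4 genes among other nuclear receptors, LXR targets, glucocorticoid receptor targets and clock genes with a mean of at least 50. With averaging it called 2, 5, 6 and 4 of these and 9 coregulators.

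Left-out libraries moved the receptors called from 3 to 6 at LPS 0.5 h (3 without replicate number 2 or 3 or without LPS 0.5 h replicate 2), 3 to 7 over the IL-4 course (3 without number 3), 2 to 5 at IL-4 0.5 h and 2 to 5 at 1 h (5 without number 1 or without replicate 1 of that time), 3 to 7 at IL-4 2 h (7 without number 1) and 0 to 4 between IL-4 1 and 4 h (fewest without number 2). In the lists, LXR targets under LPS ran from 7 to 12. Under IL-4, other nuclear receptors ran from 1 to 11, LXR targets 4 to 9, PPAR targets 3 to 10, glucocorticoid receptor targets 3 to 12, retinoid and vitamin D genes 2 to 5, clock genes 3 to 9 and coregulators 9 to 15, lowest without number 2 or 3.

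Same-numbered libraries of different groups deviated together with r of 0.351 to 0.713 for number 1, 0.0897 to 0.361 for number 2 and 0.202 to 0.454 for number 3, and 19 of 27 libraries were on average closest to their own number. Across libraries of different numbers the median r was -0.309. Same-numbered medians were 0.499, 0.224 and 0.290 for numbers 1, 2 and 3, so libraries of a number did share offsets. The main fits still do not pair the libraries by number, because no label names a shared batch and the lowest pair of number 2 fell below 0.1. That choice does not show that libraries of a number were independent. Offsets shared by a number thus stay in the spread of the main fits. The replicate block, a term for the number in the fit, takes them out. With the replicate block, 16 receptor contrasts newly passed and 0 were lost, Rxra at IL-4 0.5, 1 and 2 h among those that passed (adjusted p = 0.000217, 0.000313 and 0.00859). It called 6 receptors at IL-4 1 h, 7 at IL-4 2 h and 9 other nuclear receptors over the IL-4 course. The shares of all genes called with the block, the other filters, averaging or left-out libraries are not given here. The counts under these settings therefore show how the calls moved and nothing particular to the receptors or lists.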
